A study of Mus musculus with 6 samples.

Results

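The genes described here are 8 that encode proteins typical of the secretion of salivary and other exocrine glands: Smr3a, Smr2, Dcpp1, Dcpp2, Dcpp3, Aqp5, Cst10 and Pip. They were picked by name, with measured values in view, from a comparison of RNA in E18.5 fetal and adult basal mouse mammary cells, and they are 8 of the 20660 genes that the array probes could be matched to. Together they have 11 probes among 55681. Because that comparison was used in picking them, the differences of these genes between fetal and adult basal cells are given as a description, with no test.

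The RNA came from freshly sorted mammary cells of female C57Bl6J mice with no genetic modification named, in 3 biological replicates of each population and on 1 Agilent single-colour array per replicate. The fetal cells were taken on embryonic day 18.5 (E18.5) and sorted as CD31-CD45-Ter119-EpCAM++CD49f+ cells, so that endothelial, blood and erythroid cells were depleted and strongly EpCAM-positive epithelial cells were kept. The adult basal cells came from mice of 8 to 12 wk and were sorted with the same exclusions and also without the stromal marker BP-1, by the gate EpCAM+CD49f+, at a lower EpCAM level. Adult glands were digested overnight and fetal glands for a short time, so age, EpCAM gate and digestion differ together and cannot be told apart. The comparison was made by the study to look for RNA differences that accompany the greater regenerative activity of the fetal cells. Probe levels are given as log2 of the normalized spot signal. A probe is called when limma's Holm-adjusted p is at most 0.05 and the fold difference at least 2, and "well above background" is the scanner software's own mark for a spot.

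The mammary gland and the salivary glands are exocrine glands that bud from the ectoderm or the oral epithelium and share a plan of branching ducts, secretory cells and contractile myoepithelial cells. Saliva is made in the acini, where ion transport across the cells draws water through the apical channel Aqp5 and where secretory proteins are released from granules. Smr3a and Smr2 belong to a cluster of genes for proline-rich and androgen-regulated submaxillary gland proteins, which lies next to the casein genes on mouse chromosome 5. The 3 Dcpp genes, for demilune cell and parotid proteins, are close paralogs on chromosome 17. Pip encodes a secreted glycoprotein of several exocrine fluids (chromosome 6), and Cst10 is a member of the cystatin family of cysteine protease inhibitors (chromosome 2). Aqp5 lies on chromosome 15.

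The stretches just upstream of the genes are shown because Smr3a and the Dcpp genes were much higher in fetal cells, whereas Smr2, a gene near Smr3a with a similar promoter, and Pip were not. All are on the plus strand, read 5′ to 3′, and end on the base before the transcript start given by RefSeq for GRCm38.p6. They cover chr5:88002425-88002524 for Smr3a, chr5:88086456-88086555 for Smr2, chr17:23880776-23880875 for Dcpp1, chr17:23898622-23898721 for Dcpp2, chr17:23917358-23917457 for Dcpp3, chr15:99590928-99591027 for Aqp5 and chr6:41847449-41847548 for Pip. Capitals mark TATAAA, the TATA box motif, or ATATAAG, a related run that was picked after the sequences had been seen.
Smr3a: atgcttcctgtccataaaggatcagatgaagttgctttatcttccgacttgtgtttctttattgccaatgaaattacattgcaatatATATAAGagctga
Smr2: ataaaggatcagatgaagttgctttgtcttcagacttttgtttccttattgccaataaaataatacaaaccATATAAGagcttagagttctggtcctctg
Dcpp1: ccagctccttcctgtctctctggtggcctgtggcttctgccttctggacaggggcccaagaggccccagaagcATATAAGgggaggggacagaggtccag
Dcpp2: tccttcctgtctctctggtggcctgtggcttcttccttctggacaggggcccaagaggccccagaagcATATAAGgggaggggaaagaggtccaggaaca
Dcpp3: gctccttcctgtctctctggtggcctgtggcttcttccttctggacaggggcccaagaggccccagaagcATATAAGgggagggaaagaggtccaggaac
Aqp5: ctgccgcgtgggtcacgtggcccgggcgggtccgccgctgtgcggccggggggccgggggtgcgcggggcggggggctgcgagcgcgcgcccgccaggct
Pip: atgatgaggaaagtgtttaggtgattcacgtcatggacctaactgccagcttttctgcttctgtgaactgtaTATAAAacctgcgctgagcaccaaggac

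All 8 genes were found in the RefSeq promoter table, and for 3 of them (Smr3a, Dcpp1 and Dcpp3) RefSeq also has a transcript that starts further upstream. Over windows of 300 bases (250 before the start and 50 after), the Dcpp promoters were nearly the same sequence, with 96.9% identity between Dcpp1 and Dcpp2, 97.6% between Dcpp1 and Dcpp3 and 97.7% between Dcpp2 and Dcpp3. The Smr3a and Smr2 windows were 90.5% identical over 284 aligned bases. The other 24 pairs had between 48.9% and 66.5% identity. ATATAAG was in the 250 bases upstream of 5 of the 8 genes, all on the plus strand, with its first base at -13 in Smr3a, -29 in Smr2, -27 in Dcpp1, -32 in Dcpp2 and -30 in Dcpp3. On either strand, 2.3% of 32851 mouse promoters hold it. As these 5 promoters fall into only 2 groups of similar sequence, they are not 5 separate occurrences. TATAAA, which shares the letters TATAA with ATATAAG, was in Pip alone of the 8, at -28, and again on the minus strand at -225, against 12.4% of all promoters. The STAT motif TTCNNNGAA was also in Pip alone, against 7.02%, as was the steroid receptor half-site AGAACA, against 16.1%. The ETS motif GGAAGT was in Aqp5 alone, against 19.7%. CATATG, the E-box bound by Bhlha15, was in none of the 8, against 3.46%. Both strands were searched for each. The Smr3a and Smr2 windows were similar but not identical, and ATATAAG lay at different distances from their starts. Whether the upstream sequences bear on the differences between the populations was not tested.

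Of the 8 genes, 5 (Smr3a, Dcpp1, Dcpp2, Dcpp3 and Aqp5) were called higher in fetal cells by their brightest probe and none was called lower, and 7 of their 11 probes were called. Over all 20448 probes tested, the share called was 5.92% in the fetal direction and 5.18% in the adult basal direction. For 6 of the 8 genes the 3 fetal arrays all lay above the 3 adult basal arrays, as they did for 34.1% of the probes tested. Nothing is read from these counts, since the genes were picked on the same comparison. The spread between replicates was small, with a median SD over tested probes of 0.12 in fetal and 0.18 in adult basal cells (log2, n = 3). Of the 11 probes, 9 passed the filter on low signal, for 7 of the 8 genes.

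Smr3a was bright in fetal cells and not detected in adult basal cells. Its brightest probe (A_55_P2174646) gave 9.91, 9.95 and 9.80 on fetal arrays 1, 2 and 3, and 1.68, 1.61 and 1.66 on adult basal arrays 1, 2 and 3. The fetal spots were well above background on 3 of 3 arrays and the adult spots on none, so the adult level is only an upper limit. Set against the dimmest signal that was well above background on each adult array, fetal Smr3a was at least 69.1-fold higher. The second Smr3a probe (A_55_P2024066) gave 8.44, 8.40 and 8.36 in fetal cells and 1.66, 1.64 and 1.64 in adult basal cells, a difference of at least 24.6-fold. Both probes therefore put Smr3a among detected fetal transcripts and below detection in adult basal cells. Each bound takes the higher of that lowest signal and the probe's own on each adult array, averaged over 3 arrays on the log2 scale. The bounds hold for the signals without normexp correction, with which the fitted log2 difference of the brightest Smr3a probe was 4.10, less than its bound of 6.11.

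Smr2, which lies near Smr3a and encodes a related submaxillary gland protein, was detected in both populations. Its brightest probe (A_55_P2211982) gave 8.48, 8.64 and 8.56 in fetal cells and 7.87, 8.13 and 7.77 in adult basal cells. The fetal arrays were all higher, by 0.63 ± 0.12 on the log2 scale (SE, n = 3 and 3), which was below the 2-fold limit. The other Smr2 probe (A_51_P210031) was well above background on none of the 6 arrays, and its values overlapped between the populations. The mean of both Smr2 probes was lower in fetal cells, at a log2 difference of -0.31.

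The Dcpp genes were bright in fetal cells and dim in adult basal cells. Dcpp1 (A_55_P2178967) gave 12.1, 12.3 and 12.3 in fetal cells and 3.75, 4.10 and 3.02 in adult basal cells, of which 2 of 3 were well above background. Dcpp2 (A_55_P2158510) gave 12.0, 12.1 and 12.0 against 5.41, 4.80 and 4.63. Dcpp3 (A_55_P1991874) gave 13.1, 13.1 and 13.1 against 6.79, 7.13 and 6.62. For Dcpp2 and Dcpp3 all 6 spots were well above background, so RNA bound by these probes was detected in adult basal cells too. The log2 differences were 8.60 ± 0.26 for Dcpp1, 7.05 ± 0.20 for Dcpp2 and 6.21 ± 0.14 for Dcpp3 (SE, n = 3 and 3). These were 132- and 74.1-fold for Dcpp2 and Dcpp3, and no fold is given for Dcpp1, whose adult signal was not well above background on every array. With the normexp background correction they were 5.93, 5.50 and 5.62, so the order among the 3 genes was not kept and the size for the dimmer adult signals depends on how background was handled. The 3 genes are near-identical paralogs, and the probe sequences were not used here, so how much of each signal belongs to which Dcpp gene was not tested.

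Aqp5, the apical water channel, was higher in fetal cells by both of its probes. The brighter one (A_55_P1990121) gave 13.8, 14.0 and 14.1 in fetal cells and 8.75, 7.85 and 7.90 in adult basal cells, a log2 difference of 5.79 ± 0.24 or 55.4-fold. Adult basal array 1 stood above the other adult arrays but far below the fetal ones. The other Aqp5 probe (A_55_P2071236) gave 11.8, 11.8 and 11.9 against 7.77, 7.87 and 7.84, a log2 difference of 3.98 ± 0.10. The probes thus shared the direction and differed in size by 1.81 on the log2 scale. All 6 arrays were well above background for both.

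Cst10 and Pip did not separate the populations. Cst10 (A_55_P1959858) gave 7.33, 7.19 and 7.21 in fetal cells and 7.33, 7.63 and 7.28 in adult basal cells, a log2 difference of -0.17 ± 0.12, and the arrays overlapped. Pip (A_51_P174143) gave 5.54, 5.76 and 5.92 against 5.65, 5.47 and 5.62, a log2 difference of 0.16 ± 0.13, again with overlap. Pip was dim enough in both populations to be removed by the low-signal filter and was not tested. For both genes the sign of the difference was not the same on the 2 slides, with 0.03 and -0.43 for Cst10 and -0.10 and 0.37 for Pip, whereas all 6 spots of each were well above background. The members of the list therefore fell into a group that was much higher in fetal cells (Smr3a, the 3 Dcpp genes and Aqp5) and a group with little or no difference (Smr2, Cst10 and Pip).

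**Figure D1:**
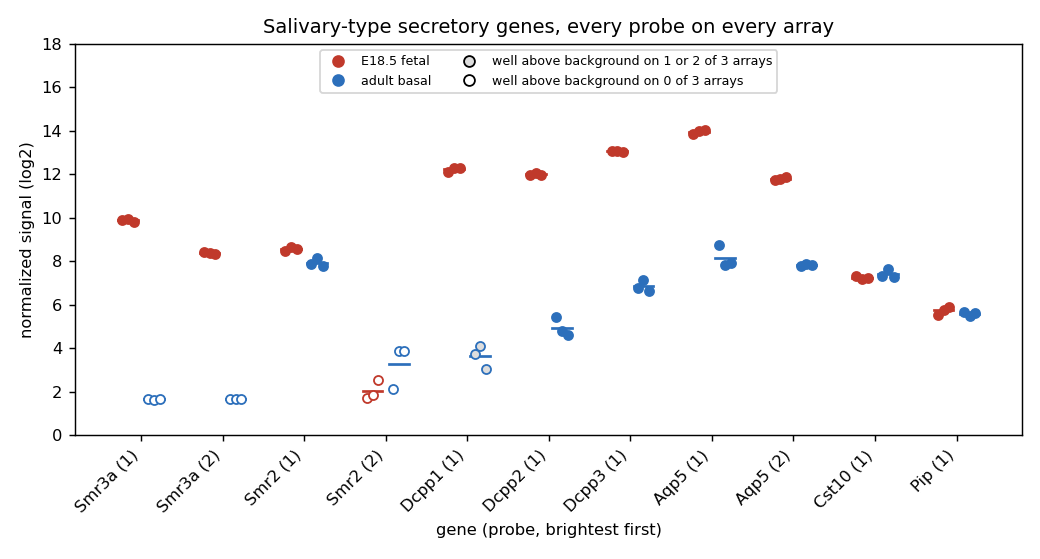
Normalized log2 signal (vertical axis) of every probe of the 8 genes (horizontal axis, brightest probe first) on 3 E18.5 fetal arrays (red) and 3 adult basal arrays (blue), with a bar at each mean and open or grey points where a population was well above background on fewer than 3 arrays. Smr3a, Dcpp1, Dcpp2, Dcpp3 and Aqp5 lie far apart, whereas Cst10 and Pip overlap.

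Each slide held arrays of both populations, and the differences were also taken within each slide (fetal 1 against adult basal 1 and 3 on slide 1, fetal 2 and 3 against adult basal 2 on slide 2). The within-slide log2 differences were 8.72 and 8.18 for Dcpp1, 6.94 and 7.21 for Dcpp2, 6.35 and 5.93 for Dcpp3 and 5.52 and 6.17 for Aqp5. For Smr3a, whose adult level is only a limit, they were 8.24 and 8.26, and for Smr2 they were 0.66 and 0.46. The 3 Dcpp genes and Aqp5 were higher in fetal cells by a similar amount on either slide. For Smr3a no adult spot was well above background, so nothing is read from the agreement between slides. With slide as a block, the median over the 8 genes was 5.99, against 6.001 without it, or 5.95 with Smr3a at its bound.

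**Figure D2:**
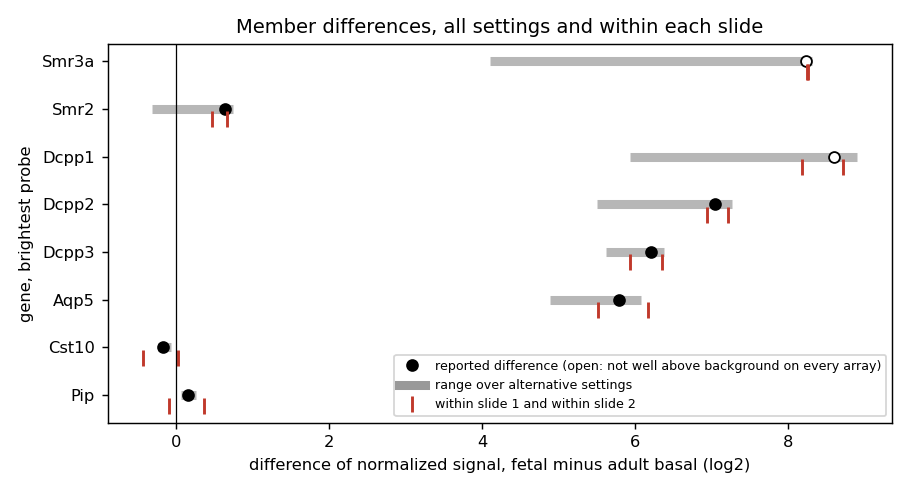
Log2 difference between fetal and adult basal cells (horizontal axis) for the brightest probe of each gene (vertical axis), as reported (points), within each of 2 slides (red ticks) and as a range over 16 alternative settings (grey bars). Only the bar of Smr2 crosses 0, and the bars of Smr3a and Dcpp1 are the longest, reaching down to 4.10 and 5.93 with normexp background correction.

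Genes on either side of the members were looked at next. From Csn1s1 to Amtn on chromosome 5, the array measured 14 genes, taken in RefSeq order and including Smr3a and Smr2. RefSeq genes with no matched probe were passed over. Of the other 12 genes, 7 were tested and 5 were called higher in fetal cells, as were 6.03% of all genes tested. None was called lower, with none lower at an unadjusted p under 0.05 in limma's test or with Benjamini-Hochberg adjustment. Csn1s1, which encodes a major milk casein, gave 12.5, 12.6 and 12.5 in fetal cells and 5.02, 4.65 and 4.54 in adult basal cells, a log2 difference of 7.80 ± 0.14 (Holm-adjusted p = 2.5e-06). For the other 4 called genes no adult array was well above background: fetal levels were at least 13.8-fold higher for Csn2 (Holm-adjusted p = 0.0002), at least 15.4-fold for Prr27 (adjusted p = 0.0017), at least 7.40-fold for Csn1s2a (adjusted p = 0.00023) and at least 7.87-fold for Csn3 (adjusted p = 0.0071). All 5 genes, Csn1s1 included, passed the low-signal filter through the fetal arrays alone, where they are high, so their count is a description. Fitted with no filter, Csn1s1 (adjusted p = 7.6e-05), Csn2 (0.0034), Csn1s2a (0.0037) and Prr27 (0.022) were still called and Csn3 was not (adjusted p = 0.077). The Csn3 call was also lost without fetal replicate 1 or 3 or adult basal replicate 1 or 3, with adjusted p between 0.061 and 0.092. The run was not uniform. Csn1s2b and Gm7337 overlapped between populations, at log2 differences of 0.32 and 0.05. Odam overlapped as well. Gm7714 and Cabs1 were dim and not tested, with every fetal array above every adult array, no adult array well above background and 3 and 2 fetal arrays well above it. Prol1 (the mucin gene Muc10) had 7.24 on adult basal array 2 and 2.16 and 1.61 on the other adult arrays, against 3.96, 3.40 and 3.94 in fetal cells. With the normexp correction, Csn1s1 was the 1 of these 5 genes still called, at a log2 difference of 6.01. The other 4 fell below the low-signal filter. Their fitted log2 differences were then 2.03 for Csn2, 1.94 for Prr27, 1.43 for Csn1s2a and 1.37 for Csn3, smaller than the bounds, which hold only for the signals without that correction.

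**Figure D3:**
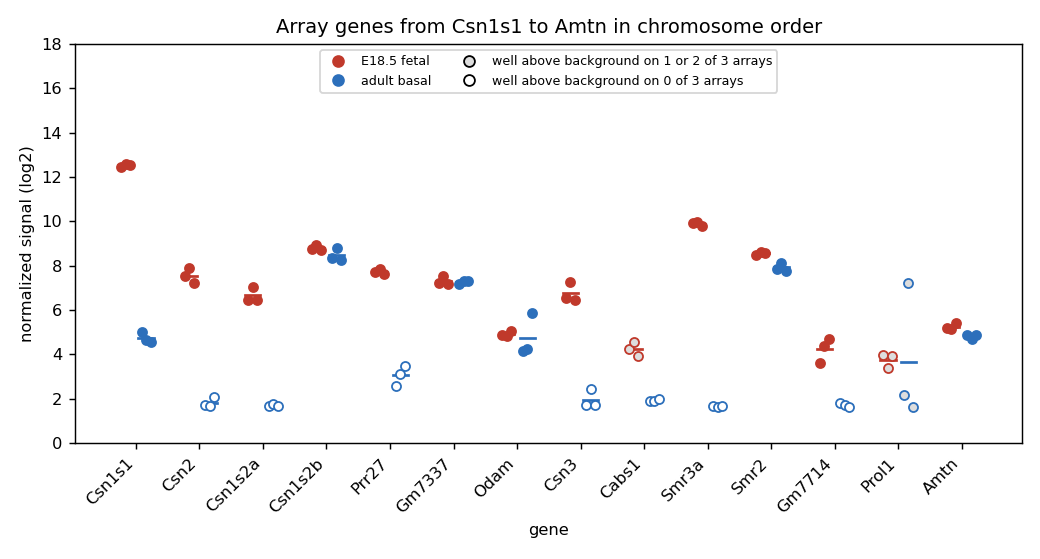
Normalized log2 signal (vertical axis) of 14 array genes in chromosome 5 order from Csn1s1 to Amtn (horizontal axis), one point per array, with fetal arrays in red, adult basal arrays in blue and open or grey points where a population was well above background on fewer than 3 arrays. Csn1s1, Csn2, Csn1s2a, Prr27, Csn3 and Smr3a separate the populations, whereas Csn1s2b, Gm7337 and Odam between them do not.

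Over the nearest 3 array genes on each side of all 8 members, 30 different genes, 15 were tested and 4 were called higher in fetal cells (Csn3, Faim2, Racgap1 and Asic1) and none lower (2 lower at an unadjusted p under 0.05 in limma's test and none with Benjamini-Hochberg adjustment), with a median log2 difference of 0.07 over those tested. The shares over all 15734 genes tested were 6.03% called higher and 5.21% called lower in fetal cells. Faim2, a gene for an inhibitor of Fas-mediated cell death, and Racgap1, a cytokinesis regulator, lie on either side of Aqp5, beyond Aqp2 and Aqp6. Faim2 was higher in fetal cells by 3.52 ± 0.14 (Holm-adjusted p = 0.00053) and Racgap1 by 3.49 ± 0.16 (adjusted p = 0.0013) on the log2 scale. Asic1, an acid-sensing ion channel gene, was higher by 3.89 ± 0.24 (adjusted p = 0.011), with 2 of 3 adult spots well above background. With the normexp correction its log2 difference was 2.08. Asic1 lost its call without any of the 3 fetal replicates or adult basal replicate 1 (adjusted p between 0.13 and 0.17). It passed the low-signal filter through the fetal arrays alone and was not called with no filter (adjusted p = 0.11). The aquaporin genes beside Aqp5 did not follow it: Aqp2 differed by 0.07 and Aqp6 by -0.45 on the log2 scale, and neither was called. Of the genes near the Dcpp cluster, Prss41 differed by 0.05, and none was called.

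Other genes for saliva proteins did not share the fetal excess as a group. Of 36 on the array, 27 were tested, 3 were called higher in fetal cells and 2 lower, and the median log2 difference was -0.15, against -0.04 over all 15734 genes tested, of which 6.03% were called with more signal in fetal and 5.21% with more in adult basal cells. At an unadjusted p under 0.05 in limma's test 5 were higher and 11 lower, and with Benjamini-Hochberg adjustment 3 and 7. The 3 higher genes were Wfdc18 (15.7 against 10.1, 5.58 ± 0.40, Holm-adjusted p = 0.034), Folr1 (2.88 ± 0.15, adjusted p = 0.0031) and Wfdc2 (2.67 ± 0.17, adjusted p = 0.016). Wfdc18 and Wfdc2 encode small secreted proteins with a whey acidic protein domain, and Folr1 a folate receptor. A second Folr1 probe gave -0.45 and was not called. Car6, the secreted carbonic anhydrase of saliva, was well above background on none of the fetal arrays and at least 44.8-fold higher in adult basal cells (adjusted p = 0.043), a bound that holds for the signals without normexp correction, with which the fitted log2 difference was -3.34. Slpi, a secreted protease inhibitor, was lower in fetal cells, at -5.19 ± 0.18 (adjusted p = 0.00023). The brightest genes that were not called were Lcn2 (-1.56 ± 0.18, adjusted p = 0.78) and Clu (0.88 ± 0.33, adjusted p = 1). Car6 passed the low-signal filter through the adult basal arrays alone. Fitted with no filter, Slpi and Folr1 were still called, and Car6 (adjusted p = 0.37), Wfdc18 (adjusted p = 0.3) and Wfdc2 (0.14) were not. With the scanner's background mark as the filter, Car6 (adjusted p = 0.067) and Wfdc18 (0.053) were not called. The calls of Wfdc18 and Wfdc2 were lost with slide as a block (adjusted p = 0.17 and 0.077). Slpi was the only one of the 5 calls kept in every fit that left out 1 array. Wfdc18 lost its call in all such fits but that without adult basal replicate 3 (adjusted p between 0.10 and 0.52), Car6 in all but that without fetal replicate 2 (adjusted p between 0.092 and 0.49), Wfdc2 without fetal replicate 1 or 2 or adult basal replicate 1 or 3 (adjusted p between 0.077 and 0.27) and Folr1 without fetal replicate 1 or 2 or adult basal replicate 1 (adjusted p between 0.051 and 0.065).

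The families of Pip, Cst10 and Aqp5 were then described. Of the Pip-related seminal vesicle antigen-like genes beside Pip, Sval1 was tested and not called, at 7.43 in either population, and Sval2 (4.64 against 4.97, not tested) overlapped. Of 17 cystatin family genes on the array, 11 were tested, 2 were called higher in fetal cells and none lower (4 lower at an unadjusted p under 0.05 in limma's test and 1 with Benjamini-Hochberg adjustment), with a median of 0.01. They were the stefins Stfa1 (10.7 against 4.87, 5.78 ± 0.44, Holm-adjusted p = 0.048) and Stfa3 (10.5 against 6.12, 4.33 ± 0.32, adjusted p = 0.039), which act on cysteine proteases inside cells. Stfa1 was well above background on 2 of 3 adult arrays, and with the normexp correction its log2 difference was 4.22. Stefin A genes are close copies of one another, so their signals are uncertain in origin. Both calls were lost without any one array, with adjusted p between 0.071 and 0.56 for Stfa1 and between 0.089 and 0.44 for Stfa3, and with slide as a block (adjusted p = 0.23 and 0.14). Stfa1 passed the low-signal filter through the fetal arrays alone, and neither gene was called with no filter (adjusted p = 0.4 and 0.33) or with the background mark as the filter (adjusted p = 0.074 and 0.061). The brightest uncalled members were Cst3 (-0.45 ± 0.14) and Cstb (-0.40 ± 0.10). None of the 8 aquaporin genes tested besides Aqp5 was called, of 11 on the array, and their median was -0.04. The brightest were Aqp4 (0.10 ± 0.12) and Aqp2 (0.07 ± 0.18). Aqp11 gave 1.20 (adjusted p = 0.13) by its brighter probe and 3.58 (adjusted p = 0.013) by the other. At an unadjusted p under 0.05 in limma's test, 1 of the 8 was higher (Aqp11) and 1 lower (Aqp6) in fetal cells, and with Benjamini-Hochberg adjustment Aqp11 was called.

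Genes for the ion transport and receptors of acinar fluid secretion were called in both directions, and most were not called with Holm adjustment. Of 24 tested, 3 were called higher in fetal cells, 3 lower and 18 not at all, with a median of -0.07. With Benjamini-Hochberg adjustment 7 were called higher and 6 lower. Over all genes tested, Holm adjustment called 6.03% higher and 5.21% lower in fetal cells. Kcnn4, the calcium-activated potassium channel of acinar cells, gave fetal and adult means of 12.0 ± 0.15 and 5.56 ± 0.14 (SD, n = 3). Its log2 difference was 6.45 ± 0.13 (Holm-adjusted p = 3.8e-06), or 5.20 with the normexp correction. Kcnn4 passed the low-signal filter through the fetal arrays alone and was also called with no filter (adjusted p = 9.7e-05). Vipr1, a receptor for vasoactive intestinal peptide, was higher by 3.22 ± 0.18 (adjusted p = 0.0052), and Atp1b1, a sodium pump subunit, by 2.82 ± 0.21 (adjusted p = 0.044). A second Vipr1 probe (0.54) was not called, nor were a second Trpv4 probe (-2.58) and 1 of the other P2rx7 probes (-1.70). The remaining P2rx7 probe (-2.98, adjusted p = 0.015) and a second Lrrc8a probe (-1.90, adjusted p = 0.013) were called lower in fetal cells. The genes lower in fetal cells were the calcium channel gene Trpv4 (-2.93 ± 0.10, adjusted p = 0.00016), the volume-regulated anion channel gene Lrrc8a (-2.84 ± 0.11, adjusted p = 0.0004) and the ATP receptor gene P2rx7 (-2.77 ± 0.19, adjusted p = 0.025). Other probes of 2 uncalled genes were also called lower: 1 for the potassium channel gene Kcnma1 (-3.21, adjusted p = 0.0054), whose brightest probe gave 0.0046, and 1 for the calcium sensor gene Stim1 (-2.53, adjusted p = 0.0045), whose brightest probe gave -2.67 (adjusted p = 0.14). Among the brightest uncalled genes, the anion exchanger gene Slc4a2 gave -0.12 ± 0.12 and the chloride channel gene Ano1 -0.50 ± 0.13. Kcnn4, Trpv4 and Lrrc8a were called in all 6 fits that left out 1 array. Vipr1 lost its call without fetal replicate 1 or adult basal replicate 1 or 3 (adjusted p between 0.058 and 0.10), P2rx7 in all such fits but that without adult basal replicate 3 (adjusted p between 0.068 and 0.39) and Atp1b1 in all but that without adult basal replicate 1 (adjusted p between 0.17 and 0.64). P2rx7 and Atp1b1 also lost it with slide as a block (adjusted p = 0.12 and 0.15), and with no filter Vipr1, P2rx7 and Atp1b1 were not called (adjusted p = 0.054, 0.2 and 0.34). With the background mark as the filter Atp1b1 was not called (adjusted p = 0.069).

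Of 13 regulators of secretory cells tested, 5 were called higher in fetal cells and 2 lower, or 5 and 4 with Benjamini-Hochberg adjustment, with a median of 0.17. Elf5, an ETS factor of mammary alveolar cells, gave 12.7 against 5.10. Its log2 difference was 7.55 ± 0.16 (Holm-adjusted p = 7.5e-06), or 6.10 with the normexp correction. Elf5 passed the low-signal filter through the fetal arrays alone and was also called with no filter (adjusted p = 0.0002). Spdef, an ETS factor of mucous secretory cells, was higher by 3.82 ± 0.16 (adjusted p = 0.001), Foxc1 by 3.12 ± 0.17 (adjusted p = 0.005), and the epithelial ETS factors Ehf by 2.32 ± 0.11 (adjusted p = 0.0027) and Elf3 by 2.02 ± 0.10 (adjusted p = 0.0019). A second, dimmer Ehf probe gave 7.60 ± 0.37 (adjusted p = 0.0025), so the size for Ehf depends on the probe. Bhlha15, which drives the granule programme of acinar cells, was lower in fetal cells, at -3.73 ± 0.19 (adjusted p = 0.0029), as was Stat5a, the prolactin-responsive factor, at -1.73 ± 0.13 (adjusted p = 0.047). Xbp1 (-1.70 ± 0.15, adjusted p = 0.13) and Sox10 (0.17 ± 0.18) were the brightest uncalled genes. Elf5, Spdef, Elf3 and Bhlha15 were called in all 6 fits that left out 1 array, although Elf3 was not called with replicate number as a block (adjusted p = 0.057). Ehf lost its call without fetal replicate 1 or 2 (adjusted p = 0.052 and 0.058), Foxc1 without fetal replicate 1 or adult basal replicate 3 (adjusted p = 0.10 and 0.061), and Stat5a in all but that without adult basal replicate 2 (adjusted p between 0.31 and 0.65) and with slide as a block (adjusted p = 0.25). With no filter Foxc1 and Stat5a were not called (adjusted p = 0.051 and 0.3), nor was Stat5a with the background mark as the filter (adjusted p = 0.076). Over the casein and related genes, a list that overlaps the chromosome 5 run, 4 of 5 tested genes were called higher in fetal cells and none lower, at an unadjusted p under 0.05 or with Benjamini-Hochberg adjustment either, with a median of 4.96, or 2.98 with genes at their bounds. Over all lists together, 89 genes were tested, 17 called higher in fetal cells and 7 lower, with a median of -0.03. Beside these counts and those of the regulators stand 6.03% called higher and 5.21% lower among all 15734 genes tested. These lists were written with earlier results of the same arrays known, so their counts are a description.

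**Figure D4:**
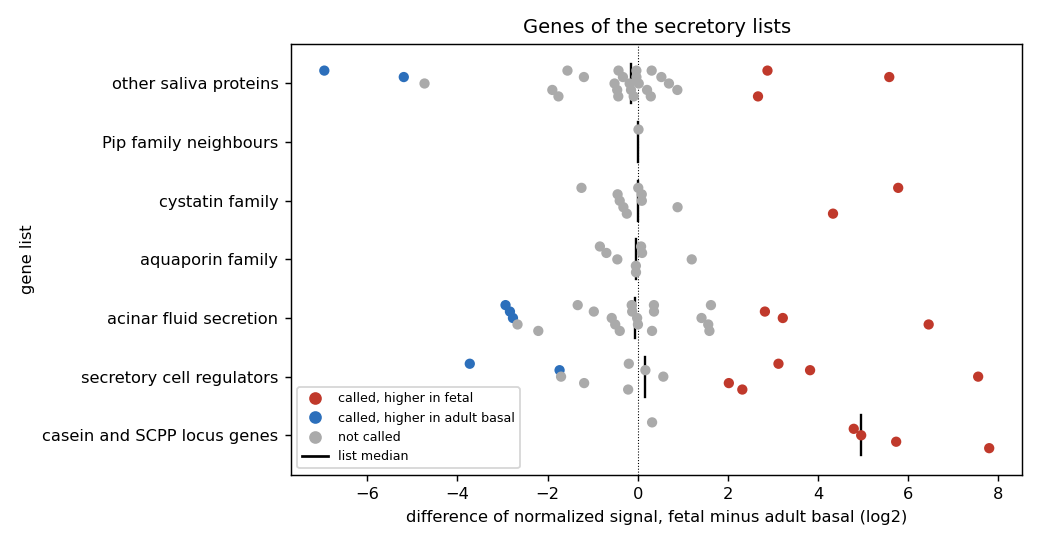
Log2 difference between fetal and adult basal cells (horizontal axis) of each tested gene in the lists of secretory genes (vertical axis), with genes called higher in fetal cells in red, called higher in adult basal cells in blue, uncalled genes in grey and a black bar at each list's median (Car6, Csn2, Csn1s2a and Csn3 at fitted values rather than bounds). Called genes lie on both sides of 0 in the saliva protein, fluid secretion and regulator lists.

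The markers of salivary gland cells were described next. Of 11 on the array, 6 were tested and none was called in either direction in limma's test, with a median of -0.30. Over all genes tested, 6.03% were called higher and 5.21% lower in fetal cells, so nothing is read from the absence of calls among these 6. At an unadjusted p under 0.05, 3 were lower in fetal cells and none higher, and with Benjamini-Hochberg adjustment 1 (Amy1) was called lower. Smgc (Muc19), a defining product of mucous salivary cells, was well above background on none of the 6 arrays. Prol1 was well above background on 1 fetal and 1 adult array, and Klk1b1 on none. Bpifa2, the parotid secretory protein gene, gave means of 5.71 ± 0.07 in fetal and 6.14 ± 0.26 in adult basal cells, and Amy1, the salivary amylase gene, 5.60 ± 0.26 and 6.79 ± 0.28 (SD, n = 3). Lpo, lactoperoxidase, had the brightest probe and is also a milk and mammary protein. The summed signal of the whole list was 28310, 21620 and 27980 in fetal cells and 34080, 28390 and 24950 in adult basal cells. Without Lpo it was 3379, 3449 and 3172 against 3479, 4986 and 3549. Of the 11 genes, 10 are also in the list of other saliva proteins. Of the 11 markers, 8 were well above background on all 3 fetal arrays and 8 on all 3 adult basal arrays. By their brightest probes, fetal and adult basal means were 10.9 and 11.1 for Prpmp5, 9.41 and 9.50 for Prh1 and 9.10 and 9.53 for Prb1. The list thus held both bright and undetected genes, with none called higher in fetal cells. What part salivary cells had in the signals of the members was not tested.

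**Figure D5:**
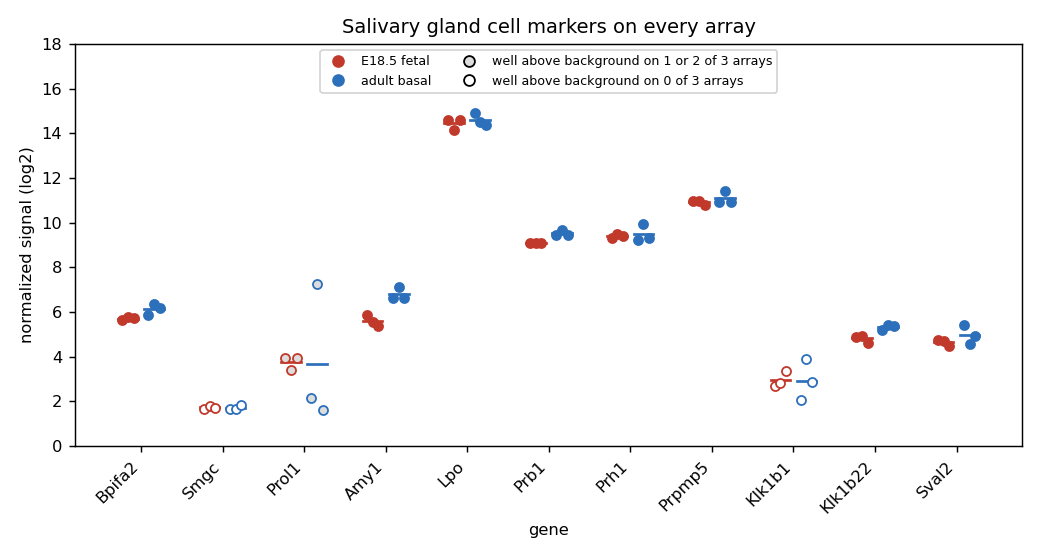
Normalized log2 signal (vertical axis) of 11 salivary gland cell markers (horizontal axis) on 3 fetal arrays (red) and 3 adult basal arrays (blue), with a bar at each mean and open or grey points where a population was well above background on fewer than 3 arrays. Smgc and Klk1b1 are at background in both populations, and the fetal values of Bpifa2 and Amy1 lie below the adult basal ones, although neither was called.

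Markers of other mammary cells also differed between the populations, in both directions. Their counts stand beside 6.03% called higher and 5.21% lower in fetal cells over all genes tested. Of 10 markers of basal and myoepithelial cells, 8 were called lower in fetal cells and none higher (none higher at an unadjusted p under 0.05 in limma's test or with Benjamini-Hochberg adjustment), with a median of -4.01. The count includes the smooth muscle myosin gene Myh11, which passed the low-signal filter through the adult basal arrays alone and was also called with no filter (adjusted p = 0.0002). Acta2, smooth muscle actin, was the brightest of the list in both populations, at -4.07 ± 0.16 (Holm-adjusted p = 0.00049), and the basal keratin gene Krt5 gave -3.90 ± 0.20 (adjusted p = 0.0039), with its call lost without fetal replicate 1 (adjusted p = 0.058) or adult basal replicate 1 (adjusted p = 0.052). Krt14 (-1.20 ± 0.51) and Trp63 (-0.08 ± 0.10, with -3.07 at a second, called probe) were not called. The summed signal of all 10 basal and myoepithelial markers was 94880, 86390 and 76460 on the fetal arrays against 1229000, 1191000 and 1193000. Of 12 luminal markers, 4 were called higher in fetal cells and none lower (4 lower at an unadjusted p under 0.05 and 3 with Benjamini-Hochberg adjustment), with a median of 0.30. These were Foxa1 (6.46 ± 0.37, adjusted p = 0.0073), Cldn3 (4.39 ± 0.15, adjusted p = 0.00018), Kit (4.003 ± 0.16, adjusted p = 0.00064) and Pgr (2.13 ± 0.13, adjusted p = 0.013, with 1.67 at a second, uncalled probe), whereas the luminal keratins Krt8 (0.44 ± 0.13) and Krt18 (0.58 ± 0.13), the brightest of the list, were not called. The oestrogen receptor gene Esr1 gave -3.58 ± 0.35 and was not called (adjusted p = 0.25), with 1 of 3 fetal spots well above background. Its other probes, well above background on all 6 arrays but not tested, gave -1.06 and -1.58. A second probe of the prolactin receptor gene Prlr was called higher in fetal cells (1.85, adjusted p = 0.026) where its brightest gave -0.35. Cldn3 and Kit were called in all 6 fits that left out 1 array, Foxa1 lost its call without any fetal replicate or adult basal replicate 3 (adjusted p between 0.08 and 0.14) and Pgr without any array but adult basal replicate 1 (adjusted p between 0.063 and 0.23) and with slide as a block (adjusted p = 0.081). With no filter Foxa1 and Pgr were not called (adjusted p = 0.082 and 0.098). The summed signal of all 12 luminal markers was 212200, 219700 and 170600 against 130400, 124400 and 123600. In bulk samples such as these, fewer cells of a type and less RNA per cell cannot be told apart, and the part of the luminal and basal genes in the differences of the members was not tested.

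For the remaining marker lists the median log2 differences were 1.47 (epidermal), -0.90 (fibroblast), -0.05 (leukocyte) and -0.97 (endothelial). Of 5 epidermal markers tested, 4 were higher and 1 lower in fetal cells at an unadjusted p under 0.05 in limma's test, and 3 and 1 with Benjamini-Hochberg adjustment. Krt10 was called higher in fetal cells (10.1 against 8.67, 1.47 ± 0.10, Holm-adjusted p = 0.022), and a second probe at 0.98 was not called. The Krt10 call was lost without any one array (adjusted p between 0.087 and 0.28), with slide as a block (adjusted p = 0.1) or with no filter (adjusted p = 0.12). Sbsn, the brightest in adult basal cells, gave -1.51 ± 0.15. The epidermal markers summed to 3116, 2703 and 2521 on the fetal and 2558, 3147 and 2838 on the adult basal arrays. Of 7 fibroblast markers tested, which summed to 5444, 5737 and 7056 on the fetal and 15640, 17990 and 26020 on the adult basal arrays, the matrix gene Dcn was called lower in fetal cells (-3.78 ± 0.18, adjusted p = 0.0023, or an adjusted p of 0.053 without fetal replicate 1), and Col1a2, the brightest in fetal cells, gave -0.90 ± 0.25. At an unadjusted p under 0.05, 6 of the 7 were lower in fetal cells and none higher, and with Benjamini-Hochberg adjustment 3 were lower. None of 5 leukocyte markers tested was called, nor was any at an unadjusted p under 0.05 in limma's test or with Benjamini-Hochberg adjustment, and the brightest, Itgam, gave 0.24 ± 0.25. None of 4 endothelial markers tested was called, although Cdh5 (-2.70 ± 0.62) and Emcn (-1.79 ± 0.29) had an unadjusted p under 0.05 and were called lower in fetal cells with Benjamini-Hochberg adjustment, and the brightest, Kdr, gave -0.04 ± 0.13. The sort antigen gene Epcam was called higher in fetal cells (13.0 ± 0.10 against 11.1 ± 0.19, SD, n = 3; adjusted p = 0.026), in the direction of the EpCAM gates, and lost its call in all fits that left out 1 array but that without adult basal replicate 1 (adjusted p between 0.12 and 0.40) with slide as a block (adjusted p = 0.15) and with no filter (adjusted p = 0.18). Itga6, for CD49f, gave 15.7 in both.

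The 5 genes whose pattern over the 6 arrays was most like the mean of the 7 members with a tested brightest probe were Brca2 (Pearson r = 0.99989), Bcl11a, Serpine2, Scrg1 and Rpl31. All were higher on the 3 fetal arrays than on the 3 adult basal arrays. Serpine2, a serpin of serine proteases, gave 12.5, 12.5 and 12.6 against 6.44, 6.43 and 5.86, and Bcl11a, a transcription factor gene of mammary progenitors, gave 12.0, 12.1 and 12.2 against 7.39, 7.31 and 7.11. With 2 groups of 3 arrays, any gene with a large difference and a small spread has such a correlation: of 20181 probes compared, 6.61% had r above 0.99.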

How the data were processed

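The authors deposited spot intensities from Agilent Feature Extraction 11.0.1.1, background-subtracted and linear, for 6 single-colour SurePrint G3 Mouse GE arrays, and a table of log2 values that they had quantile normalized in GeneSpring. The labels name a low-input T7-primed labelling kit and the methods a whole-transcript version of it. From the deposited processed intensity, control spots and outlier spots (between 104 and 326 per array) were dropped, the log2 spot values of each probe averaged and the arrays quantile normalized. Probe accessions were matched to RefSeq (27235 probes, 20660 genes). Probes in the lowest of 3 k-means clusters in both populations were removed, and the remaining 20448 were fitted with limma 3.58.1 in R 4.3.3 (lmFit and eBayes), with calls made at Holm-adjusted p values up to 0.05 and folds from 2. A gene was represented by its brightest probe, for listed genes its brightest tested probe. A ± beside a log2 difference is its standard error. Between 76.4% and 83.3% of probes per array were well above background, no spot was saturated, and the number of arrays, 3 per population, limits the precision.

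The 8 genes and all gene lists were chosen with earlier results of these data known. Named from each list of secretory genes were up to 4 called genes with the largest differences in each direction and up to 2 of the brightest uncalled genes, and from each marker list the brightest gene of each population and the defining markers, together with sort antigens and the 5 genes most alike in pattern. The nearest 3 array genes on each side of a member were counted, and those called and a few others were named. Elf3, Prr27, Gm7337, Prss41, Ano1, Kcnma1, Stim1, Aqp11, Klk1b1, Esr1, Prlr, Myh11, Foxa1, Cldn3, Kit, Pgr, Cdh5 and Emcn, and the ATATAAG motif, were chosen after their values or letters were seen. The same holds for Prpmp5, Prh1 and Prb1. The names of 2 relatives of Pip, 1 cystatin and 1 gene of the casein region were not matched, and 1 gene each of the fluid secretion, epidermal and leukocyte lists had no probe among those matched. Promoter windows came from RefSeq (GRCm38.p6) and were aligned with Biopython 1.88. Probe and protein sequences were not used here. The values of 1 listed gene are not reported here. Alternatives were scaling to the 75th percentile, the deposited log2 values, normexp (offset 50) on the median spot intensity, an offset of 16, no filter, a filter by the scanner's background mark, unmatched probes added, Benjamini-Hochberg adjustment, slide or replicate number as a block, each array left out and averaging over the probes of a gene. The fit was tested on simulated data.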

Additional observations from a re-analysis of the deposited data

How the results depend on the processing

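Of 20448 probes, 2270 were called, and 24 genes of the secretory lists. These counts were 1182 and 13 without a low-signal filter, 6133 and 40 with Benjamini-Hochberg adjustment, and between 948 and 1949 probes and between 11 and 20 genes when 1 array was left out, the lowest being without fetal replicate 1. Without fetal replicate 2, without fetal replicate 3, without adult basal replicate 1 and without adult basal replicate 3 the probe counts were 974, 1055, 1469 and 1327, and the gene counts without fetal replicate 2, adult basal replicate 1 and adult basal replicate 3 were 15, 14 and 15. Same-numbered arrays did not deviate together (correlations of -0.03, 0.09 and 0.05), so the replicate number was not taken to pair samples. With it as a block 1302 probes and 20 genes were called. The median of the members cannot move under that block, since each replicate number holds 1 array of each population. The median difference of the 8 members, 6.001, was 6.17 with the deposited values, 4.80 with normexp, 5.68 with an offset of 16 and 5.55 with the mean of a gene's probes. Normexp and the offset raise dim signals by construction. Smr3a, the 3 Dcpp genes and Aqp5 kept their sign under 16 of 16 alternatives, Smr3a between 4.10 and 8.31, Dcpp1 between 5.93 and 8.90, Dcpp2 between 5.50 and 7.27, Dcpp3 between 5.62 and 6.38 and Aqp5 between 4.89 and 6.08. Smr2 kept it under 15, from -0.31 with the mean of its probes to 0.74. The filter settings, the unmatched probes added and the replicate block left these differences unchanged by construction, so they count among the 16 without testing the sign. Of the 24 calls in the lists, 24 were kept with 75th percentile scaling, 17 with slide as a block, and as few as 11 with 1 array left out. Adult spots of Smr3a were well above background on no array and those of Dcpp1 on 2 of 3, which leaves the size of these differences to the handling of background.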
